A study of Homo sapiens with 27 samples.

Results

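The enzymes that cut and rejoin antigen receptor genes were followed in REH, a cell line from human B-cell precursor leukemia (BCP-ALL) that carries the ETV6/RUNX1 fusion. They were represented by 10 genes (RAG1, RAG2, DNTT, XRCC5, XRCC6, PRKDC, DCLRE1C, XRCC4, LIG4 and NHEJ1) of the 60619 gene identifiers in the count tables. The genes were listed by function, with earlier results of these data known. RNA was sequenced 72 h after REH cells received medium alone or an LNA GapmeR at 10 µM, taken up passively from the medium without a transfection reagent. GapmeRs are antisense oligonucleotides that let RNase H cut the RNA they pair with. The 10 groups were medium (2 samples), a non-targeting GapmeR (NTC, 3 samples) and 2 GapmeRs against each of 4 lncRNAs, which are long non-coding RNAs. Each GapmeR had 3 samples, except GapmeR1 against lnc-NKX2-3-1 and GapmeR2 against lnc-ASTN1-1, which had 2 each. Medium and NTC together are the 5 controls. All 27 samples came from this single line, grown and treated in culture. Per the study's methods the biological triplicates were done on different days. Each replicate number was taken here as 1 day across the groups, which neither the methods nor the labels state. Neither medium nor lnc-NKX2-3-1 GapmeR1 had a replicate 3, and lnc-ASTN1-1 GapmeR2 had no replicate 2.

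In developing lymphocytes, RAG1 and RAG2 together form the recombinase that cuts DNA beside V, D and J gene segments and leaves hairpin-sealed coding ends. The Ku heterodimer (XRCC5 and XRCC6) then binds the ends, DNA-PKcs (PRKDC) and Artemis (DCLRE1C) open the hairpins, TdT (DNTT) adds bases without a template, and XRCC4, LIG4 and NHEJ1 seal the break. RAG1, RAG2 and DNTT mark lymphoid precursors, whereas the other genes serve double-strand break repair in most cell types, and in ETV6/RUNX1 leukemia the recombinase is also known for off-target cuts.

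Both pairs of GapmeRs against lnc-NKX2-3-1 and against lnc-RTN4R-1 are shown because the members differed between both oligonucleotides of each pair, in XRCC5 most for the first pair and in LIG4 most for the second. Written 5′ to 3′, capitals mark the longest stretch that could pair without a mismatch with the sense strand of XRCC5 (upper 2) or of LIG4 (lower 2), introns included.
lnc-NKX2-3-1 GapmeR1: tGCTCTGTGCggattg
lnc-NKX2-3-1 GapmeR2: ctgATTTTTAGTAGtg
lnc-RTN4R-1 GapmeR1: gCATTCATgggttaag
lnc-RTN4R-1 GapmeR2: tgcTGAGACATCtagg
The XRCC5 stretch opposite lnc-NKX2-3-1 GapmeR1 lies in the coding sequence at chr2:216148085-216148100 (GRCh38, plus strand), with the 9 pairing bases in capitals.
XRCC5 site: tctgctGCACAGAGCt
It was the only XRCC5 stretch of that length, and 39.1% of the 14716 genes scanned (at least 270 counts over all samples) held a run of 9 bases or more for the same GapmeR. The closest full-length XRCC5 match to it had 4 mismatches, and 46.8% of genes had as few. For lnc-NKX2-3-1 GapmeR2 the longest XRCC5 run was 11 bases, found at 5 positions, the first of them intronic, and 71.2% of genes held one as long. The LIG4 runs were 7 bases for lnc-RTN4R-1 GapmeR1 (as long in 91.0% of genes) and 9 bases for GapmeR2 (57.6%). Across the 10 members and the 8 lncRNA GapmeRs the longest run was 13 bases, between lnc-TIMM21-5 GapmeR2 and PRKDC, with a single mismatch over the full length, a match as close as in 0.122% of genes. PRKDC had a log2 fold change of -0.12 against controls with that GapmeR (SE 0.103, edgeR adjusted p = 1.00).

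The samples had 14627110 to 22750945 counts assigned to genes, and 9 of the 10 members passed the filter on low counts in the comparisons below. NHEJ1, which encodes the end joining factor XLF, had 63 counts over all 27 samples (0 to 7 in a sample, 0 in 2 samples) and was tested in none of them. A second annotated gene on the same strand shares 2034 of the 10442 exonic bases of NHEJ1 (19.5%), and the counting dropped reads that touch 2 genes, so the NHEJ1 counts are uncertain. Of the B-cell precursor markers, CD79A, CD79B, PAX5, EBF1, IGLL1 and MME were present in every sample, with means of the 5 controls from 303 CPM (counts per 1e6 counts of normalised library size) for IGLL1 to 747 CPM for PAX5. VPREB1 had 0 counts in all 27 samples, on either strand and unstranded. Whether its reads were dropped in the counting was not tested, so these counts do not show that its RNA was absent.

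Relative to the combined length of all annotated exons, the lymphoid enzymes and the Ku genes were the most abundant of the 10. That length joins the exons of every annotated transcript and can exceed that of the RNA expressed. It was 29073 bases for PRKDC, 15295 for DCLRE1C and 1959 for DNTT, so the order depends on the annotation. Mean levels per kilobase of exon were 480 CPM for DNTT, 208 CPM for RAG1, 161 CPM for XRCC6, 136 CPM for XRCC5, 63.7 CPM for RAG2, 21.1 CPM for PRKDC, 7.77 CPM for LIG4, 6.75 CPM for XRCC4, 1.52 CPM for DCLRE1C and 0.0119 CPM for NHEJ1. The ranges over the 27 samples of neighbours in this order overlapped only for RAG1 (179 to 272 CPM per kilobase) with XRCC6 (118 to 185), for XRCC6 with XRCC5 (81.4 to 156), and for LIG4 (6.10 to 10.3) with XRCC4 (4.46 to 8.37). Each tested member varied little between samples, with a highest value at most 1.91 times its lowest (XRCC5). The plot of CPM by group shows every sample.

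**Figure D1:**
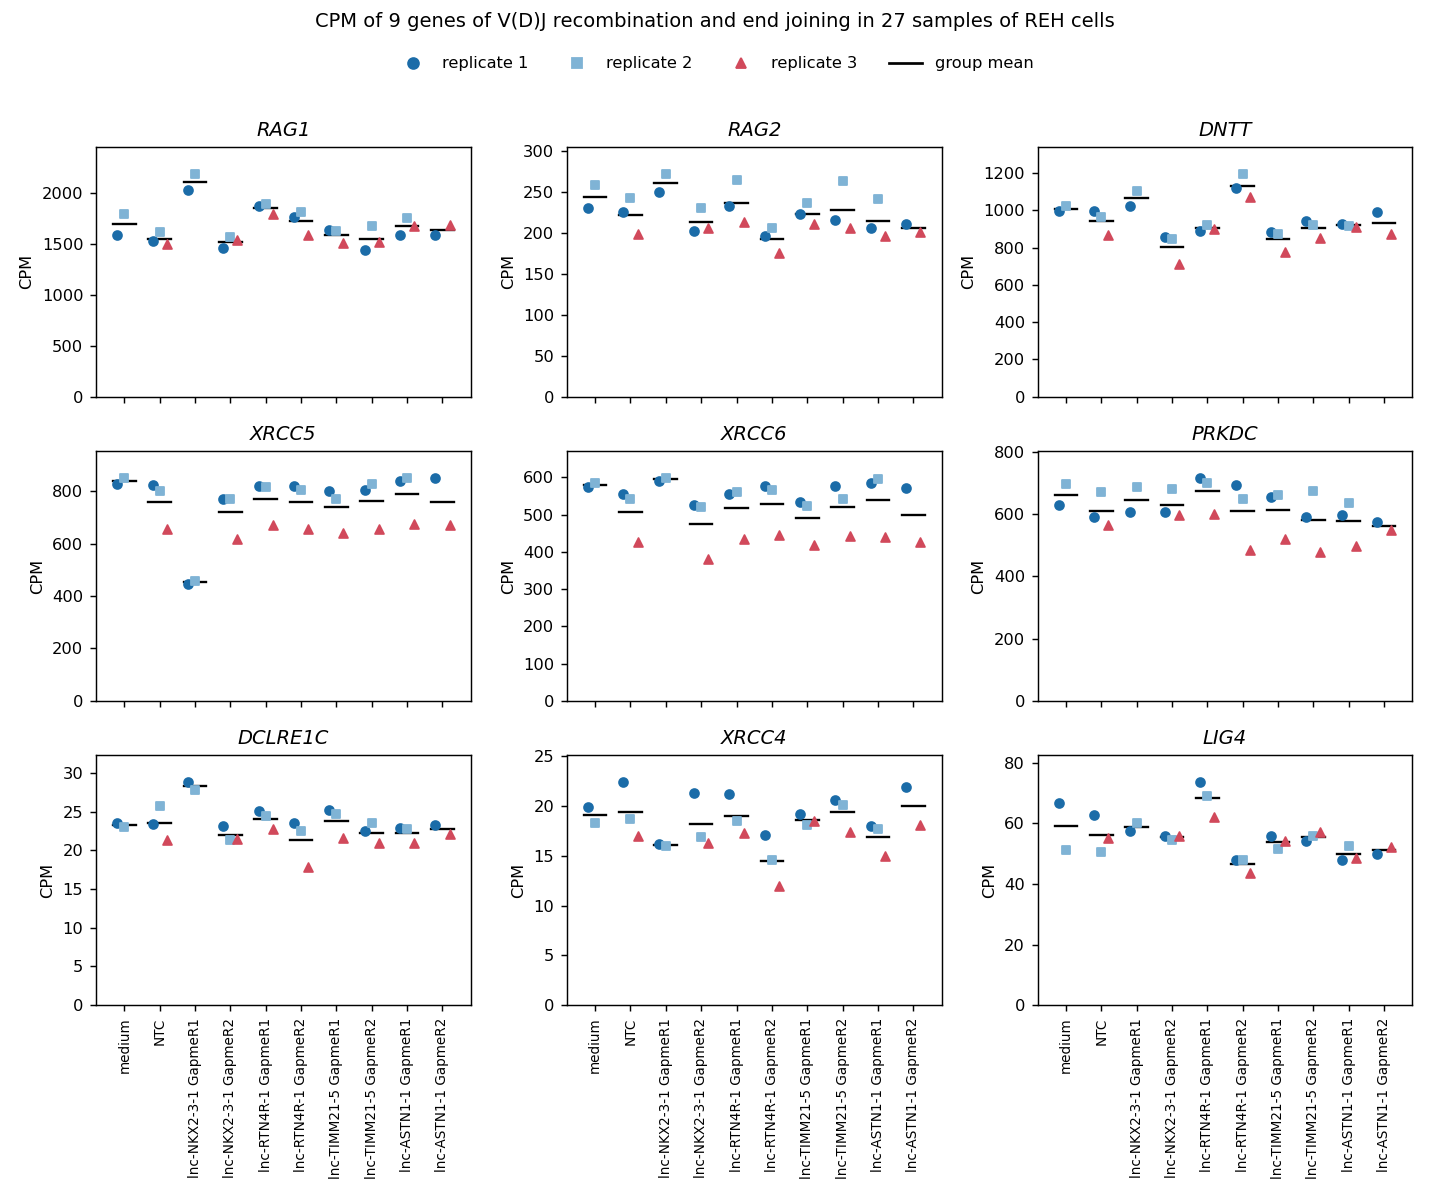
CPM (vertical axes, from 0) of the 9 tested members in each sample of the 10 groups, with replicate numbers as marker shapes and group means as lines. XRCC5 with lnc-NKX2-3-1 GapmeR1 (445 and 460 CPM) sits below all other samples of that gene, and the replicate 3 triangles sit below the other replicates for XRCC5 and XRCC6 in each of the 8 groups that have one.

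The first comparison asked whether both GapmeRs of a lncRNA, fitted as 1 group, changed the members against the controls. None of the 9 tested members passed the edgeR threshold (adjusted p under 0.05) for any of the 4 lncRNAs. The share of all tested genes that passed was 0% with GapmeRs against lnc-NKX2-3-1, 0.476% with those against lnc-RTN4R-1, 0.00665% with lnc-TIMM21-5 as the target and 0.0136% with lnc-ASTN1-1 as the target. In each of the 4 comparisons 1 member had an unadjusted p under 0.05 by edgeR. Of all genes, 1104 of 14850 (lnc-NKX2-3-1), 1575 of 14911 (lnc-RTN4R-1), 809 of 15029 (lnc-TIMM21-5) and 832 of 14755 (lnc-ASTN1-1) did. DESeq2 called 0 members. The widest changes were in XRCC5 (log2 fold change -0.37, SE 0.155, adjusted p = 0.661) for lnc-NKX2-3-1 and XRCC4 (-0.20, SE 0.124, adjusted p = 0.632) for lnc-RTN4R-1. In 1 fit of all 27 samples each GapmeR was its own group, and the mean of both effects was tested. XRCC5 then passed for lnc-NKX2-3-1 (log2 fold change -0.47, edgeR adjusted p = 0.00248), where 8.28% of all genes passed. That fit weighs both GapmeRs equally and keeps their difference out of the spread, so it is not the same comparison.

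When each GapmeR was compared with the controls alone, members passed with lnc-NKX2-3-1 GapmeR1. XRCC5 fell and RAG1 and DCLRE1C rose, the other 6 tested members did not pass, and 17.6% of all 15402 genes tested passed in the same comparison. The values below take the members in the order in which their products act. The share of all genes whose samples lay apart from the controls was not taken. Nothing further is therefore read below from groups without overlap. With lnc-NKX2-3-1 GapmeR2 and with each GapmeR against the other 3 lncRNAs, 0 members passed. The share of all genes called in those comparisons was 0% (lnc-NKX2-3-1 GapmeR2), 1.59% and 6.62% (lnc-RTN4R-1 GapmeR1 and GapmeR2), 0.079% and 0.0593% (lnc-TIMM21-5), and 0.718% and 0.013% (lnc-ASTN1-1). At an unadjusted p under 0.05 by edgeR there were 8 members in those 7 comparisons. Of these, 4 were with lnc-RTN4R-1 GapmeR2, where 3120 of all 15050 genes reached that level. In the other comparisons from 307 of 15346 genes (lnc-ASTN1-1 GapmeR2) to 1452 of 15186 (lnc-RTN4R-1 GapmeR1) did. DESeq2 called 3 members, all with lnc-RTN4R-1 GapmeR2, and its share of all genes is not given here.

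**Figure D2:**
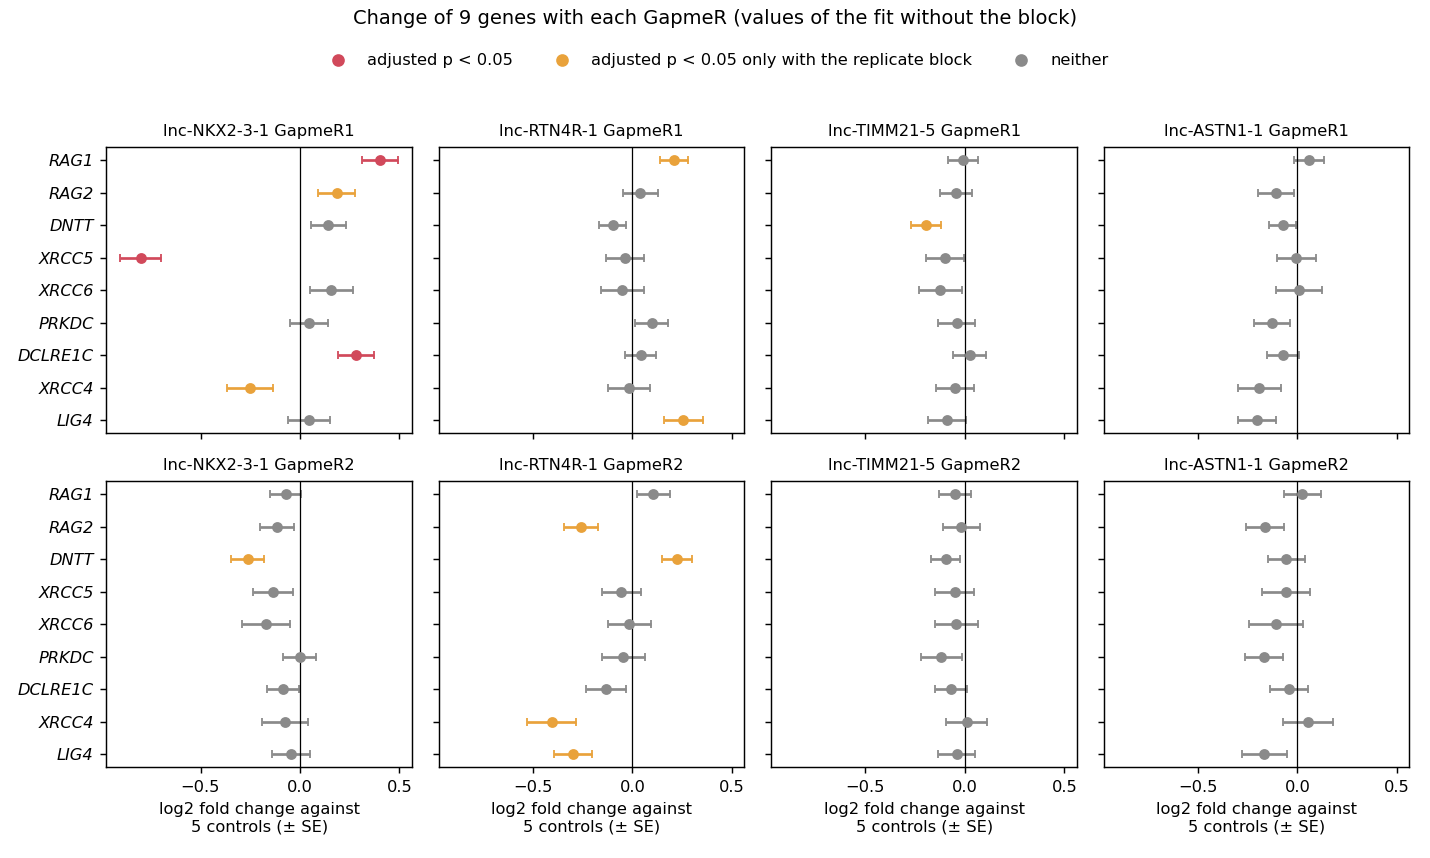
Log2 fold change against the 5 controls (horizontal axes, points with SE bars) of the 9 tested members for each of the 8 GapmeRs, coloured by whether the adjusted p was under 0.05 without the replicate block, only with it, or in neither fit. XRCC5 at -0.80 with lnc-NKX2-3-1 GapmeR1 lies farthest from 0.

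Because replicate numbers were taken as days, each comparison was also fitted with the replicate number as a block. The calls then grew from 3 to 13. With the replicate block, 5 members passed for lnc-NKX2-3-1 GapmeR1 (36.4% of all genes), 1 for its GapmeR2 (2.72%), 2 for lnc-RTN4R-1 GapmeR1 (9.39%), 4 for its GapmeR2 (22.4%) and 1 for lnc-TIMM21-5 GapmeR1 (2.79%). The calls made only in that fit are named as such below.

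RAG1 (ENSG00000166349, chromosome 11, 36510372 to 36593156, plus strand, protein coding) encodes the catalytic subunit of the recombinase. It was at 1590 and 1802 CPM in medium, at 1534, 1616 and 1501 CPM with NTC, and at 2035 and 2195 CPM with lnc-NKX2-3-1 GapmeR1. Both treated samples lay above all 25 others. The log2 fold change was 0.40 (SE 0.090, edgeR adjusted p = 0.00785), with a mean of 2115 CPM (SD 113, n = 2) where the controls averaged 1609 CPM (SD 117, n = 5). With lnc-NKX2-3-1 GapmeR2 RAG1 was at 1464, 1576 and 1540 CPM, within or just below the range of the controls. With lnc-RTN4R-1 GapmeR1 it was at 1877, 1894 and 1801 CPM, overlapping the highest control, and passed only with the replicate block (log2 fold change 0.22, adjusted p = 0.000179, against 0.21 and 0.270 without it). The call for lnc-NKX2-3-1 GapmeR1 was lost without its replicate 2 (log2 fold change 0.34, adjusted p = 0.137) and held without each of the other 6 libraries.

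RAG2 (ENSG00000175097, chromosome 11, 36575574 to 36598279, minus strand, protein coding), the partner of RAG1 that reads histone marks at active gene segments, was at 230 and 259 CPM in medium and 225, 243 and 199 CPM with NTC. It was at 250 and 273 CPM with lnc-NKX2-3-1 GapmeR1, overlapping the controls, and at 196, 206 and 176 CPM with lnc-RTN4R-1 GapmeR2, where 1 sample overlapped them. Both passed only with the replicate block, at a log2 fold change of 0.14 (adjusted p = 0.0202, 0.201 without it) and -0.23 (adjusted p = 0.000687, 0.0944 without it). RAG1 and RAG2 are transcribed toward each other and share 588 exonic bases, 16.8% of those of RAG2. IFTAP, a gene on the strand opposite RAG2, shares 372 exonic bases with it (10.6% of those of RAG2). Counts by strand were used here. Unstranded counts, which drop reads in such overlaps, were 79.6% of the stranded ones for RAG2 and 93.2% for RAG1.

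DNTT (ENSG00000107447, chromosome 10, 96304409 to 96338564, plus strand, protein coding), which encodes the template-independent polymerase TdT, was at 995 and 1022 CPM in medium and 999, 966 and 866 CPM with NTC. It was highest with lnc-RTN4R-1 GapmeR2 (1120, 1198 and 1073 CPM) and lowest with lnc-NKX2-3-1 GapmeR2 (859, 849 and 710 CPM). It overlapped the controls in neither group, though its 859 CPM was close to their lowest value of 866 CPM. Against the controls it passed only with the replicate block, with a log2 fold change of 0.25 for lnc-RTN4R-1 GapmeR2 (adjusted p = 0.000584, 0.103 without the block) and -0.24 for lnc-NKX2-3-1 GapmeR2 (adjusted p = 6.45e-05, 0.913 without). With lnc-TIMM21-5 GapmeR1 it was at 885, 875 and 777 CPM, with a log2 fold change of -0.17 in the paired fit (adjusted p = 0.0092) and -0.20 without the block (adjusted p = 0.921). With lnc-NKX2-3-1 GapmeR1, where RAG1 rose, DNTT was at 1026 and 1104 CPM, a log2 fold change of 0.14 that did not pass.

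XRCC5 (ENSG00000079246, chromosome 2, 216107464 to 216206303, plus strand, protein coding) encodes Ku80, the larger Ku subunit, and showed the widest difference of any member. It was at 829 and 850 CPM in medium, at 824, 801 and 657 CPM with NTC, and at 445 and 460 CPM with lnc-NKX2-3-1 GapmeR1. The lowest of the other 25 samples was at 617 CPM, so the groups were separate. It averaged 452 CPM (SD 10.4, n = 2) where the controls averaged 792 CPM (SD 77.6, n = 5). The log2 fold change was -0.80 (SE 0.103, edgeR adjusted p = 0.000142), which ranked 329 of 15402 genes by p. With the second GapmeR against the same lncRNA it was at 772, 770 and 617 CPM (log2 fold change -0.14), overlapping the controls. The call held without each of the 7 libraries in turn (log2 fold change -0.86 to -0.77) and with NTC or medium alone as the reference, and was lost when replicate 1 was left out of every group, which leaves 1 treated sample (-0.74, adjusted p = 0.0839). With replicates 1 and 2 alone, the replicate numbers that this GapmeR has, the log2 fold change was -0.86.

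XRCC6 (ENSG00000196419, chromosome 22, 41621163 to 41664048, plus strand, protein coding) encodes Ku70, with which Ku80 forms an obligate pair. It was at 592 and 599 CPM with lnc-NKX2-3-1 GapmeR1, at 574 and 586 CPM in medium and at 555, 541 and 427 CPM with NTC. XRCC6 did not pass for this GapmeR against the controls, with or without the replicate block. The control at 427 CPM is a replicate 3, which this GapmeR does not have. In lnc-ASTN1-1 GapmeR1 replicate 2 XRCC6 was at 595 CPM. The ratio of XRCC5 to XRCC6 CPM was 0.752 and 0.767 with lnc-NKX2-3-1 GapmeR1. In the other 25 samples it was between 1.40 and 1.61 (mean 1.49, SD 0.0506), including replicate 3, on which both subunits were lower.

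**Figure D3:**
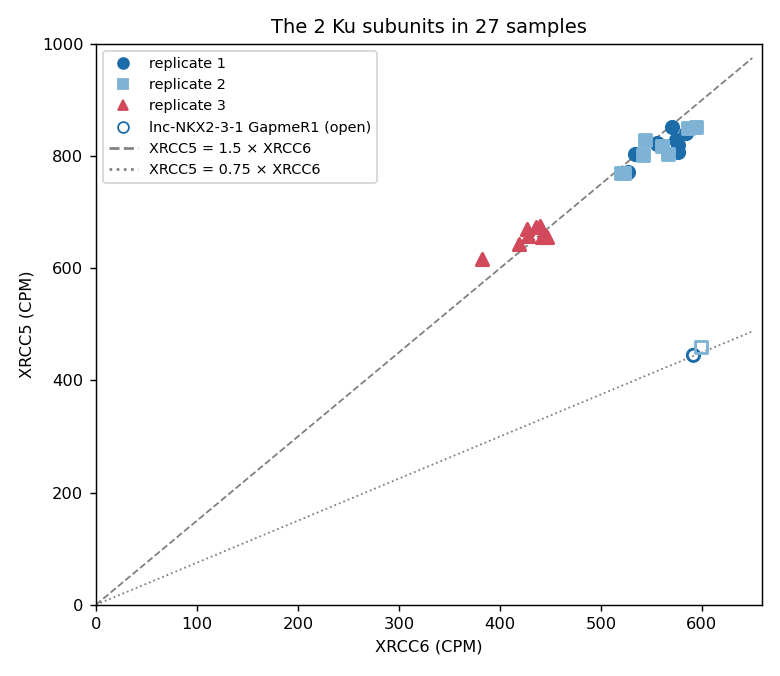
XRCC5 CPM (vertical axis) against XRCC6 CPM (horizontal axis) in the 27 samples, with replicate numbers as marker shapes, lnc-NKX2-3-1 GapmeR1 as open markers and lines for ratios of 1.5 and 0.75. The 2 open markers lie near the lower line, at ratios of 0.752 and 0.767, and the other 25 samples near the upper one.

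PRKDC (ENSG00000253729, protein coding), which encodes the kinase that Ku recruits to the break, was called with no single GapmeR in either fit. It was at 629 and 696 CPM in medium, 589, 669 and 566 CPM with NTC, and between 477 and 716 CPM over all 27 samples. Its group means ran from 561 CPM with lnc-ASTN1-1 GapmeR2 to 672 CPM with lnc-RTN4R-1 GapmeR1, and neighbouring groups in that order overlapped.

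DCLRE1C (ENSG00000152457, chromosome 10, 14897359 to 14954432, minus strand, protein coding) encodes Artemis, the nuclease that opens the hairpins. It was at 28.9 and 27.9 CPM with lnc-NKX2-3-1 GapmeR1, above all 25 other samples, against 23.6 and 23.1 CPM in medium and 23.5, 25.7 and 21.4 CPM with NTC. The log2 fold change was 0.28 (SE 0.090, edgeR adjusted p = 0.0460), close to the threshold. It averaged 28.4 CPM (SD 0.699, n = 2), where the controls averaged 23.4 CPM (SD 1.55, n = 5). The call was lost without 5 of the 7 libraries (both medium samples, NTC replicate 1 and either treated sample, adjusted p up to 0.251), with NTC alone (adjusted p = 0.118) or medium alone (0.0732) as the reference, without the low-count filter (0.0567), and with unstranded counts (log2 fold change 0.18, adjusted p = 0.160).

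XRCC4 (ENSG00000152422, chromosome 5, 83077498 to 83353787, plus strand, protein coding), the scaffold that holds the ligase, was at 19.9 and 18.3 CPM in medium and 22.4, 18.7 and 17.0 CPM with NTC. It was at 16.2 and 16.0 CPM with lnc-NKX2-3-1 GapmeR1, below all 5 controls, and at 17.0, 14.5 and 11.9 CPM with lnc-RTN4R-1 GapmeR2. With 207 to 480 counts per sample it was the member with the fewest counts among those tested. Both differences passed only with the replicate block, at log2 fold changes of -0.29 (adjusted p = 0.00977, 0.160 without) and -0.37 (adjusted p = 0.00119, 0.0696 without).

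LIG4 (ENSG00000174405, chromosome 13, 108207439 to 108218368, minus strand, protein coding), the ligase that seals the break, was at 66.6 and 51.4 CPM in medium and 62.7, 50.6 and 55.0 CPM with NTC. The GapmeRs against lnc-RTN4R-1 stood at both ends of its range: 73.7, 69.2 and 62.1 CPM with GapmeR1, the highest group, and 47.9, 47.9 and 43.5 CPM with GapmeR2, the lowest. The first group overlapped the controls and the second lay below them. Each passed against the controls only with the replicate block, at log2 fold changes of 0.28 (adjusted p = 0.000137, 0.376 without) and -0.28 (adjusted p = 0.00122, 0.0861 without).

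The next comparison asked whether both GapmeRs against the same lncRNA differed from each other. For lnc-NKX2-3-1, 4 members differed between GapmeR1 and GapmeR2 where 13% of all genes did. RAG1 was higher with GapmeR1 (log2 difference 0.47, SE 0.097, edgeR adjusted p = 0.0105), as were DNTT (0.41, SE 0.107, adjusted p = 0.0336) and DCLRE1C (0.37, SE 0.102, adjusted p = 0.0405), and XRCC5 was lower (-0.67, SE 0.114, adjusted p = 0.00401). In all 4 genes, which the test had already called, the 2 samples of GapmeR1 did not overlap the 3 of GapmeR2. The share of all genes without overlap was not taken, so nothing further is read from this. With the replicate block, which leaves 1 residual degree of freedom, 7 members passed where 41.8% of all genes did; RAG2 (0.28), XRCC4 (-0.25) and XRCC6 (0.19) were added. Leaving out replicate 1 of GapmeR1 ended each of the 4 calls (XRCC5 -0.64, adjusted p = 0.0538), and leaving out its replicate 2 ended all but that of XRCC5. GapmeR1 had no replicate 3. Without that of GapmeR2 all 4 calls held, at 0.48 (RAG1), 0.32 (DNTT), 0.35 (DCLRE1C) and -0.77 (XRCC5). Without GapmeR2 replicate 1 the calls of RAG1, DNTT and DCLRE1C ended, and without GapmeR2 replicate 2 that of DCLRE1C. The DCLRE1C call was also lost by DESeq2 (adjusted p = 0.0548) and with unstranded counts (edgeR adjusted p = 0.0826).

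For lnc-RTN4R-1, 2 members differed between the GapmeRs where 5.92% of all genes did. LIG4 averaged 68.3 CPM with GapmeR1 (SD 5.85, n = 3) and 46.4 CPM with GapmeR2 (SD 2.54, n = 3), for a log2 difference of 0.56 (SE 0.084, edgeR adjusted p = 0.00461). DNTT averaged 904 CPM with GapmeR1 (SD 18.2) and 1130 CPM with GapmeR2 (SD 63.0) (log2 difference -0.32, SE 0.072, adjusted p = 0.0305). The LIG4 call held without each of the 6 libraries (0.50 to 0.63), while the DNTT call was lost without 5 of them, all but GapmeR2 replicate 3 (adjusted p up to 0.163). With the replicate block 6 members passed where 30.9% of all genes did; RAG1 (0.11), RAG2 (0.30), PRKDC (0.16) and XRCC4 (0.39) were added, all higher with GapmeR1. Between both GapmeRs against lnc-TIMM21-5, and likewise against lnc-ASTN1-1, edgeR and DESeq2 called 0 members, with 0 at an unadjusted p under 0.05, where 0.0784% and 0.146% of all genes passed. Their log2 differences ran from -0.10 to 0.09 and from -0.24 to 0.11.

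NTC was compared with medium to see whether an oligonucleotide without a target moved the members. By edgeR and DESeq2 0 members passed, and the share of all genes called by edgeR was 0%. At an unadjusted p under 0.05 by edgeR there were 0 members, where 670 of 15100 genes reached that level. With the replicate block there were 2, RAG1 and XRCC6, where 1838 of 15100 genes did, and 0 members passed. The log2 differences ran from -0.19 (XRCC6, 95% interval -0.42 to 0.04) to 0.02 (XRCC4, -0.25 to 0.30), so changes within these intervals could not be told from none with 3 and 2 samples. Medium had no replicate 3, and without NTC replicate 3 the XRCC6 difference was -0.08. Across all 10 groups at once, RAG1, DNTT, XRCC5 and LIG4 differed (edgeR adjusted p = 0.00195, 0.00180, 0.0145 and 0.00234) where 16.1% of all genes did, and with the replicate block 8 of 9 did, all but PRKDC, where 48.6% of genes passed. The XRCC5 call among the 10 groups was lost without either sample of lnc-NKX2-3-1 GapmeR1 (adjusted p up to 0.259).

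Replicate 3 was then compared with replicates 1 and 2, which were taken as other days. With the group held constant, 7 of 9 members were lower in replicate 3 than in replicates 1 and 2, where 51.7% of all genes differed and 25.3% were lower. The Ku genes had the widest differences of the members. XRCC6 was at 382 to 447 CPM (median 432) in the 8 samples of replicate 3 and averaged 562 CPM (SD 25.0, n = 19) in the others, without overlap, a log2 difference of -0.38 (SE 0.023, edgeR adjusted p = 1.27e-13). XRCC5 fell by 0.31 on the log2 scale (adjusted p = 1.21e-12), and its replicate 3 values were 617 to 675 CPM (median 657).

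PRKDC followed with a log2 difference of -0.27 (adjusted p = 3.01e-06), then XRCC4 with -0.23, RAG2 with -0.17, DCLRE1C with -0.16 and DNTT with -0.13 (highest adjusted p = 0.000552 among these 4). Replicate 3 was the lower in 8 of 8 groups for each of these 7 genes. RAG1 was lower in 5 of 8 groups and LIG4 in 4 of 8, and neither passed. Day, culture and library preparation cannot be told apart here, and each of the 7 calls held without any single library. MPO, a myeloid marker, was higher in replicate 3 in 8 of 8 groups (log2 difference 0.49, adjusted p = 6.75e-12), and its part in these differences was not tested.

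**Figure D4:**
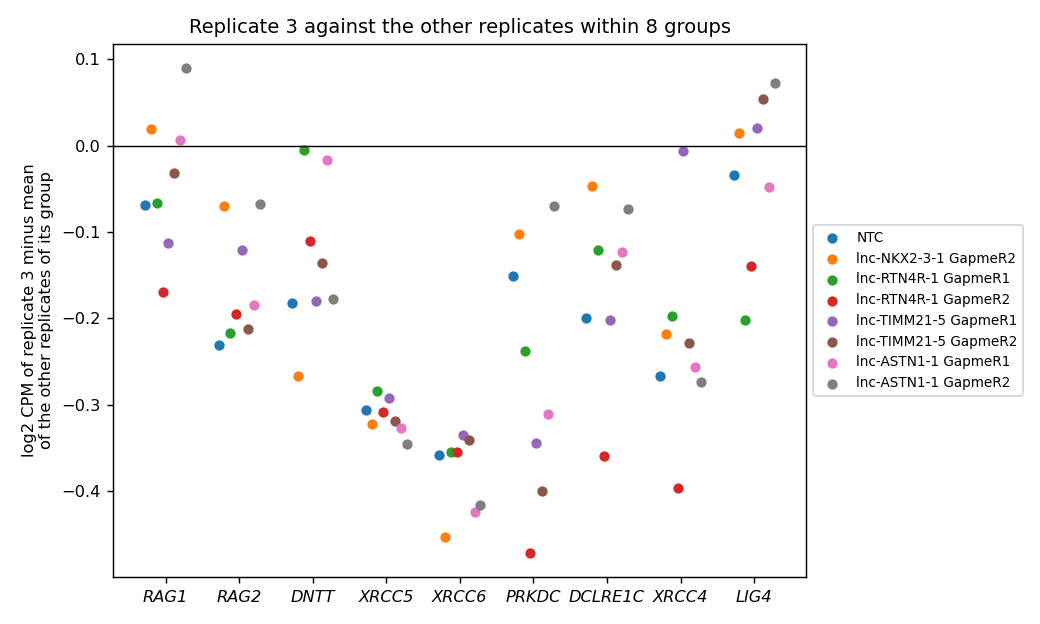
Log2 CPM of replicate 3 minus the mean of the other replicates of the same group (vertical axis) for the 9 tested members, with a coloured point for each of the 8 groups that have a replicate 3. All points of XRCC5 and XRCC6 lie between -0.45 and -0.28, while those of RAG1 and LIG4 lie on both sides of 0.

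The wider pathway was followed in 58 genes of 7 lists. With lnc-NKX2-3-1 GapmeR1, 3 of 7 tested transcription factors of RAG expression rose and 1 fell (median log2 fold change 0.25, against 0.00 over all genes tested), where 17.6% of all genes passed. FOXO1, an activator of RAG transcription, was at 236 and 255 CPM against 153 to 199 CPM in the 5 controls (log2 fold change 0.51, SE 0.094, edgeR adjusted p = 0.00231). BCL11A rose as well (0.42, adjusted p = 0.00911). EBF1, a factor of early B-cell identity, averaged 231 CPM (SD 11.7, n = 2) where the controls averaged 309 CPM (SD 16.4, n = 5). Its log2 fold change was -0.41 (adjusted p = 0.00292).

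In the double-strand break signalling list 2 of 14 genes rose and 2 fell with the same GapmeR (median 0.08), a share read against the same 17.6%. ATM, the kinase that answers breaks made by the recombinase, fell by 0.85 on the log2 scale (SE 0.084, adjusted p = 1.59e-05), to 119 and 117 CPM from 196 to 238 CPM in the controls. RIF1, which shields ends from resection, rose by 0.39 (adjusted p = 0.00507). Of 8 RAG cofactors and turnover factors only KPNA2, an importin that binds RAG1, passed (0.43, adjusted p = 0.00421). Of 12 homologous recombination genes BRCA2 rose (0.54, adjusted p = 0.00517) and RAD51B fell (-1.21, adjusted p = 7.75e-05), and of the 2 neighbours of the RAG genes TRAF6 rose (0.44, adjusted p = 0.0244). None of 7 tested other end joining factors and none of 6 alternative end joining genes passed by edgeR. With the replicate block 2 and 3 did, where 36.4% of all genes passed.

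With lnc-RTN4R-1 GapmeR2, where 6.62% of all genes passed, 1 of 7 tested other end joining factors fell, APLF, a partner of Ku and XRCC4 (log2 fold change -0.75, adjusted p = 0.00848). MRE11, which resects ends with RAD50 and NBN, was the only 1 of 14 break signalling genes that passed, at 89.6, 81.6 and 71.9 CPM against 112 to 125 CPM in the controls (-0.54, adjusted p = 0.000709). No gene of the transcription factor, RAG cofactor, alternative end joining or RAG neighbour lists passed by edgeR with this GapmeR, and 1 of 12 homologous recombination genes fell. With each of the other 6 GapmeRs edgeR called 0 genes of these 7 lists.

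Markers of another lineage moved with the same GapmeRs. The summed level of the 4 myeloid markers, nearly all of it MPO, was 86.1 to 133 CPM in the controls. It was 164 and 196 CPM with lnc-NKX2-3-1 GapmeR1 and 293 to 449 CPM with lnc-RTN4R-1 GapmeR2. With the latter MPO rose by 1.78 on the log2 scale (edgeR adjusted p = 9.01e-05). CSF1R rose by 1.66 (adjusted p = 0.00204), but at low levels, with means of 0.756 CPM in the controls and 2.39 CPM with lnc-RTN4R-1 GapmeR2. LYZ and CD14 averaged 0.0798 and 0.346 CPM in the controls. Of the 4 T-cell markers, CD3D and CD3G had 0 counts in all samples and CD3E had 138 counts over all of them. TRAC, the remaining T-cell marker, was at 7.61 to 23.9 CPM. The part of the myeloid and T-cell markers in the changes of the members was not tested. In bulk RNA fewer cells of a type and less RNA per cell cannot be told apart. With lnc-RTN4R-1 GapmeR1, 1.59% of all genes passed. There CD79A of the B-cell precursor list (log2 fold change 0.33, edgeR adjusted p = 0.0150) and MS4A1 of the mature B or plasma cell list (1.37, adjusted p = 0.000701) rose. With lnc-NKX2-3-1 GapmeR1, 1 of 7 tested B-cell precursor markers rose, MME (0.42, adjusted p = 0.0186), and 1 fell, EBF1 as given above. PRDM1 rose (2.12, adjusted p = 0.00144) from a control mean of 1.63 CPM. It was the only 1 of 3 tested mature B or plasma cell markers that passed (median -0.06). MS4A1 was at 7.24 and 5.39 CPM there, where the controls averaged 8.62 CPM. With lnc-RTN4R-1 GapmeR2, where 6.62% of all genes passed, IGLL1 of the B-cell precursor list fell (-0.29, edgeR adjusted p = 0.0444).

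The genes whose log2 CPM followed the lymphoid enzymes most closely over the 27 samples were listed as a description. These samples share replicate numbers and normalisation. For RAG1 they were IL7R (Pearson r = 0.927), ZNF608 (0.924) and ASXL1 (0.892), of 16267 genes compared. For RAG2 they were CTCF (0.894), NPAT (0.890) and RMI1 (0.884), and for DNTT PPT1 (0.875), INTS10 (0.869) and CPNE1 (0.856). RAG1 and RAG2 correlated with each other at 0.557, and RAG2 with DCLRE1C at 0.727.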

How the data were processed

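RNA of 27 REH samples was sequenced by the authors, aligned to hg38 with STAR (per the labels and the study's methods) and counted per gene. The deposited values are raw counts of uniquely mapped reads, with no normalisation. Column 4, which held 95.3% of both strand columns, was used. The annotation release was not given in the sources used here, and the labels describe ribodepleted stranded total RNA where the methods describe poly-A selection, which bears on which RNAs could be counted. Symbols and coordinates came from GENCODE v44 (GRCh38), without 4185 unmatched identifiers. Rows that name no gene held 23.0% to 28.5% of reads and were left out.

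Tests were robust quasi-likelihood F tests of edgeR (4.0.16) after TMM normalisation, in R (4.3.3), each comparison on its own samples, after filterByExpr (minimum count 10, minimum total 15), with Benjamini-Hochberg adjustment over all genes tested. CPM used TMM library sizes of all samples, with a prior count of 2 for log2 CPM. Standard errors came from the F statistics, and 95% intervals are 1.96 standard errors. The labels gave each sample's group and replicate number. The study's methods place replicates on different days, and the deviations of samples with the same number had a mean correlation of 0.263 (109 pairs), against -0.130 for different numbers (218 pairs), so the number was also used as a block. All 24 within-group pairs differed by more than sampling noise. All samples are of 1 cell line, so p-values measure the spread between cultures of it.

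The members and lists were chosen with earlier results of these data known. Named genes were all members, up to 3 genes per list with the smallest adjusted p among those called with any single GapmeR, and the 3 genes most correlated with RAG1, RAG2 and DNTT. Alternatives were DESeq2 (1.42.0), RLE normalisation, other filters, unstranded counts, other controls, 1 fit of all samples, and replicates or libraries left out. On counts simulated for lnc-NKX2-3-1 GapmeR1 against controls, 91.5% of 200 genes given a log2 change of 1 were recovered among 15400 genes, and 4.69% of calls were false. The false share was 8.10% for lnc-RTN4R-1 GapmeR1 against GapmeR2 (14970 genes, 96.5% recovered), 8.12% for NTC against medium (15080 genes, 90.5%) and 6.25% for both lnc-RTN4R-1 GapmeRs against controls (14930 genes, 97.5%), above the 5% that the threshold allows on average. The counts simulated for these comparisons held no shift of replicate 3, and the planted change was wider than any member's. These rates therefore do not carry over to the calls of the members. GapmeR sequences came from the study's supplementary list and gene sequences from hg38. Results for 1 marker are not reported here.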

Additional observations from a re-analysis of the deposited data

Results flagged for a closer look

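Single samples stood far from the rest of a group in 4 of the 45 combinations of member and group examined, where chance gives about 1 in 20 (Dixon's test at its 95% critical value). XRCC5 was at 657 CPM and XRCC6 at 427 CPM in NTC replicate 3, below the other 4 controls (801 and 541 CPM or more), and both genes were lower in replicate 3 of all 8 groups that have one. DCLRE1C was at 17.9 CPM in lnc-RTN4R-1 GapmeR2 replicate 3, where the next of the 6 samples with GapmeRs against that lncRNA was at 22.5 CPM. XRCC4 was at 21.3 CPM in lnc-NKX2-3-1 GapmeR2 replicate 1, where the next of 5 was at 16.9 CPM.

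The effects of both GapmeRs against the same lncRNA differed, by a direct edgeR test, in 6 cases. For lnc-NKX2-3-1 the log2 differences (GapmeR1 minus GapmeR2) were 0.47 for RAG1, 0.41 for DNTT, 0.37 for DCLRE1C and -0.67 for XRCC5. Only GapmeR2 had a replicate 3, and without it the values in the same order were 0.48, 0.32, 0.35 and -0.77. For lnc-RTN4R-1 the log2 differences were -0.32 for DNTT and 0.56 for LIG4.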

How the results depend on the processing

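No value that passed the threshold changed sign under any alternative run. The number of member calls changed with the fit, as did the share of all genes called (for lnc-NKX2-3-1 GapmeR1, 17.6%, 36.4% with the replicate block and 19.8% with one fit of all samples), and nothing particular to the members is read from the growth. With both GapmeRs together it was 0, and 1 with one fit of all samples. With single GapmeRs it was 3, and 13 with the replicate block, 6 with DESeq2, 6 with one fit of all samples, and 0 to 5 with a replicate number left out throughout. Between both GapmeRs it was 6, and 13 with the replicate block, 10 without the low-count filter, and 0 to 8 with a replicate number left out. Among the 10 groups it was 4, and 8 with the replicate block and 0 to 4 with a replicate number left out. RLE normalisation and a minimum of 10 counts in every sample changed no call, and no call made without the block was lost with it. Between NTC and medium it stayed 0, and for replicate 3 it was 7 or 8. Fits with a number left out rest on fewer samples, and where 1 sample remained it was assumed to vary like the other groups. The other causes were not tested. Of the single values, 1627 stayed short of the threshold in both fits, and 101 of these had the other sign. NHEJ1 had too few counts to be tested.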
